A study of Mus musculus with 8 samples.

Results

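The scaffolds of the Dlg, Dlgap and Shank families were read in the striatum of adult male mice heterozygous for a gene trap in Brd2 and of wildtype males. The set is 10 genes, Dlg1, Dlg2, Dlg3, Dlg4, Dlgap1, Dlgap2, Dlgap3, Shank1, Shank2 and Shank3, of 30175 gene names on the array. Every non-control spot that the scanner files name as 1 of these genes was taken, which gave 22 of 39429 probes, and each probe was kept apart from the others of its gene. The accession of 18 probes led to the same symbol in a RefSeq table of assembly GRCm38.p6, and the other 4, with Ensembl transcript accessions, kept the file's name.

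The heterozygous group (Brd2+/-) was 4 males and the wildtype group was 4 males, labelled as strain C57Bl/6j, born to heterozygous parents in the seventh generation of backcrossing. Genotypes came from PCR over the junction of the trap vector, and the labels do not say what the trap leaves of the Brd2 product, a bromodomain protein that binds acetylated histones. RNA of every mouse was hybridised on 2-colour Agilent arrays, with a Cy3 mouse and a Cy5 mouse of the same genotype on each of 4 arrays, so that each genotype rests on 2 arrays. In both genotypes the dye was Cy3 for replicates 1 and 3 and Cy5 for replicates 2 and 4. Replicates 1 and 2 shared an array, as did replicates 3 and 4.

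The median spot read between 3.72 and 9.45 times its local background in heterozygous samples and between 4.16 and 10.5 times in wildtype samples, with every Cy5 sample below every Cy3 sample. No spot was saturated. The share of probes well above background was 41.6% in heterozygous replicate 3 and 53.3% to 63.1% in the other samples. The tissue field of the labels gives striatum and the free description left atrium of the heart. Ppp1r1b, which marks striatal projection neurons, averaged 16.77 ± 0.28 log2 units in heterozygous and 16.30 ± 0.50 in wildtype samples (SD, n = 4 each). Of 8 atrial genes 1 was well above background in every sample and 2 in 0 samples. Among the atrial genes Myl7 was well above background in 0 samples and Nppa in 7 of 8. Nppa averaged 7.09 ± 0.08 in heterozygous and 7.36 ± 0.55 in wildtype samples (SD, n = 4 each). The 2 Brd2 probes read higher in the heterozygous samples by 0.88 (SE 0.29) and 0.29 (SE 0.35) log2 units. Their place against the trap is not known here, so they do not check the genotype.

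Excitatory synapses carry a postsynaptic density, a sheet of proteins under the membrane that holds glutamate receptors and ties them to signalling enzymes and actin. Proteins of the Dlg family bind receptor tails with their PDZ domains. Their guanylate kinase-like domain binds Dlgap proteins, and these bind the PDZ domain of Shank proteins, which reach Homer and actin regulators. In the striatum Dlgap3 and Shank3 are the best-known members of their families, since mice that lack either groom themselves to injury.

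The probes of Dlg1 and Dlgap1, which ran in different directions, those of Shank1 and Shank3, which ran in the same direction, and the brightest probe, of Dlgap3, are shown by 30 of their 60 bases, in the letters of the scanner file. These are bases 31 to 60, save for Dlgap1 A_55_P1959728 (bases 25 to 54). Coordinates are on mm9, per the file headers. The files have no strand field and give the start below the end for all 22 probes, an order that reads as the forward strand, since other probes, such as those of Brd2, have it reversed. Capitals mark AATAAA, the usual polyadenylation signal.
Dlg1 A_55_P2011712, chr16:31771918-31771977: attgctttcttttttctttataacaattta
Dlg1 A_55_P1957900, chr16:31871872-31871931: catctcttgccctgttgtggagtctgtctt
Dlg1 A_51_P101858, chr16:31863262-31863321: gccataaagaggttgcagattgcacagctt
Dlgap1 A_51_P520650, chr17:71168189-71168248: atgtttcaatcagcagaagattgtaaattc
Dlgap1 A_55_P1959728, chr17:71165374-71165433: caacagtttagaAATAAAgactcgagttct
Dlgap1 A_52_P443073, chr17:71170058-71170117: agtgtatgtaccctcaaaaattacttattt
Dlgap3 A_52_P138806, chr4:126914197-126914256: gagtatcccaggaaaAATAAAaccgcagaa
Shank1 A_55_P1994554, chr7:51613661-51613720: catggccctgaactctttccaaatgtttaa
Shank1 A_55_P2062187, chr7:51612134-51612193: acacctgcagggtgtggaatttgagatgcg
Shank1 A_55_P1994550, chr7:51612669-51612728: gagaggtgatggctggcctggacggaccag
Shank3 A_51_P115626, chr15:89390449-89390508: aatttgggtttttaactttacagggtcagt
Shank3 A_55_P2089858, chr15:89388668-89388727: cgcgttggccaccgcatgaacatcgagcgt

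AATAAA was in the full 60 bases of 2 of the 22 probes, those of Dlgap1 and Dlgap3 above, and with its reverse complement TTTATT in 3 of 22. Of all 39429 probes 12.6% held AATAAA and 16.2% held either. The Dlg1 probe A_55_P2011712 was designed on an Ensembl transcript (ENSMUST00000155958) and lies at a lower coordinate than the other Dlg1 probes, both designed on NM_007862. Dlgap1 A_55_P1959728 was designed on NM_027712 and the other Dlgap1 probes on NM_177639. The exon or UTR that a probe reads was not looked up, since no annotation of mm9 was used here.

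Of the 22 probes 14 stood well above background in all 8 samples. A filter of at least 4 samples well above background and 2 values per genotype left 19 probes, with 1 to 3 for each of the 10 genes. The 3 that failed were 1 probe each of Dlgap2 (2 heterozygous and 0 wildtype samples above background), Shank1 (0 heterozygous and 1 wildtype) and Shank2 (2 heterozygous and 1 wildtype). All levels below are log2 units of background-corrected, normalized signal, and all differences are heterozygous minus wildtype on that scale. Differences of single probes between genotypes come from the limma fit described below. They can depart from the gap between the group means where values are missing. A probe's signal depends on its sequence, so the order that follows is one of brightness and not of transcript number. Less RNA per cell and fewer cells of a type cannot be told apart in whole tissue.

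Ranked by the brightest probe of each gene, Dlgap3 was first at 15.79 ± 0.27 in heterozygous (SD, n = 4) and 15.32 ± 0.15 in wildtype samples (SD, n = 2), above 98.4% of the wildtype means of all probes kept. Dlg3, Shank3, Dlg4 and Dlg2 came next, with means from 11.92 to 12.68 in heterozygous and from 11.98 to 12.48 in wildtype samples. Neighbours among these 4 were not all apart beyond the spread: Dlg3 was brighter than Shank3 in 5 of 8 samples and Shank3 brighter than Dlg4 in 5 of 6, whereas Dlg4 was brighter than Dlg2 in 4 of 4, all heterozygous. In wildtype samples Dlg2 and Dlg4 were read in different mice. Dlg1, Dlgap1 and Dlgap2 lay between 9.95 and 10.26 in heterozygous and between 9.79 and 10.78 in wildtype samples, with Dlgap1 above Dlgap2 in 4 of 8 samples. Shank1 averaged 8.80 ± 0.20 in heterozygous and 9.39 ± 0.37 in wildtype samples (SD, n = 4 each). Shank2 was dimmest at 7.63 ± 0.15 in heterozygous and 7.72 ± 0.23 in wildtype samples (SD, n = 4 each), below Shank1 in 8 of 8 samples and at the percentile 22.7 of the wildtype means. The rank was the same in both genotypes for 8 genes, and Dlgap1 and Dlgap2 changed places.

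**Figure D1:**
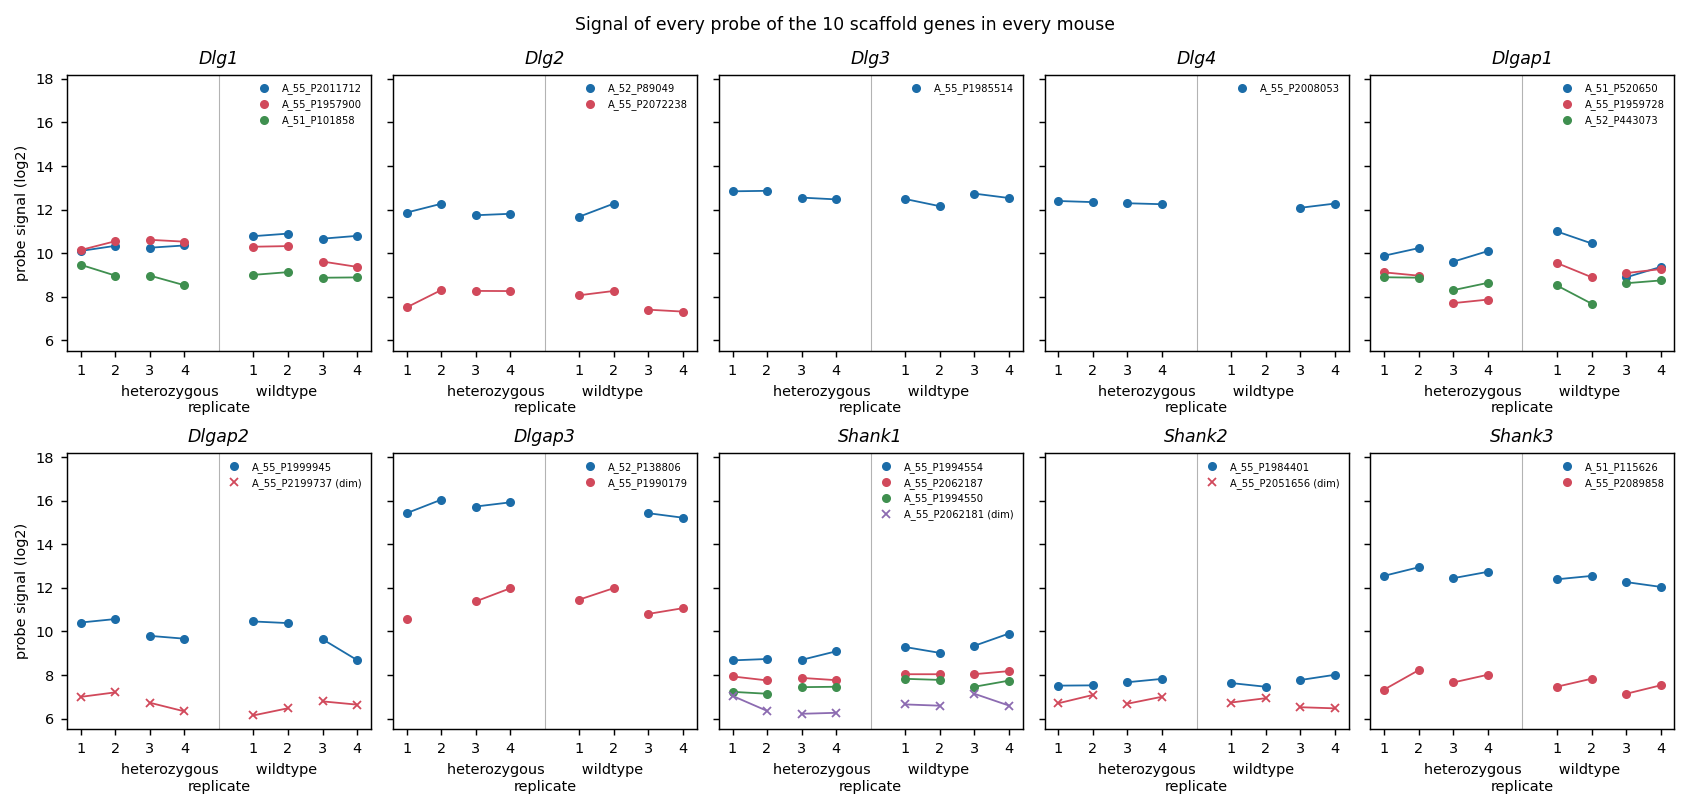
Log2 signal (y axis) of all 22 probes in the 4 heterozygous (left) and 4 wildtype (right) mice of each panel, with a line between the mice that shared an array. Crosses are the 3 dim probes. Dlgap3 A_52_P138806 lies between 15.22 and 16.05 in every sample measured, and gaps are spots that the scanner software flagged as outliers.

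The scaffolds of heterozygous and wildtype samples were compared with limma over all 21828 probes that passed the filter, with dye as covariate and array as a random block. None of the 19 scaffold probes passed at an adjusted p under 0.05, as did 0% of all probes tested. The lowest adjusted p was 0.542 in the family and 0.324 over all probes in limma. Before adjustment 1 scaffold probe, of Dlg1, was under 0.05 and lower in heterozygous samples, beside 4.17% of all probes that were lower and 8.86% in either direction. The differences ran from −0.78 to 0.56 with 11 probes above 0 and 8 below, where 49.7% of all probes were above 0. Their median was 0.03, and that of all probes −0.003. At least 1.5-fold apart were 2 of 19 scaffold probes, 1 of Dlgap1 and 1 of Shank1, against 18.7% of all probes.

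**Figure D2:**
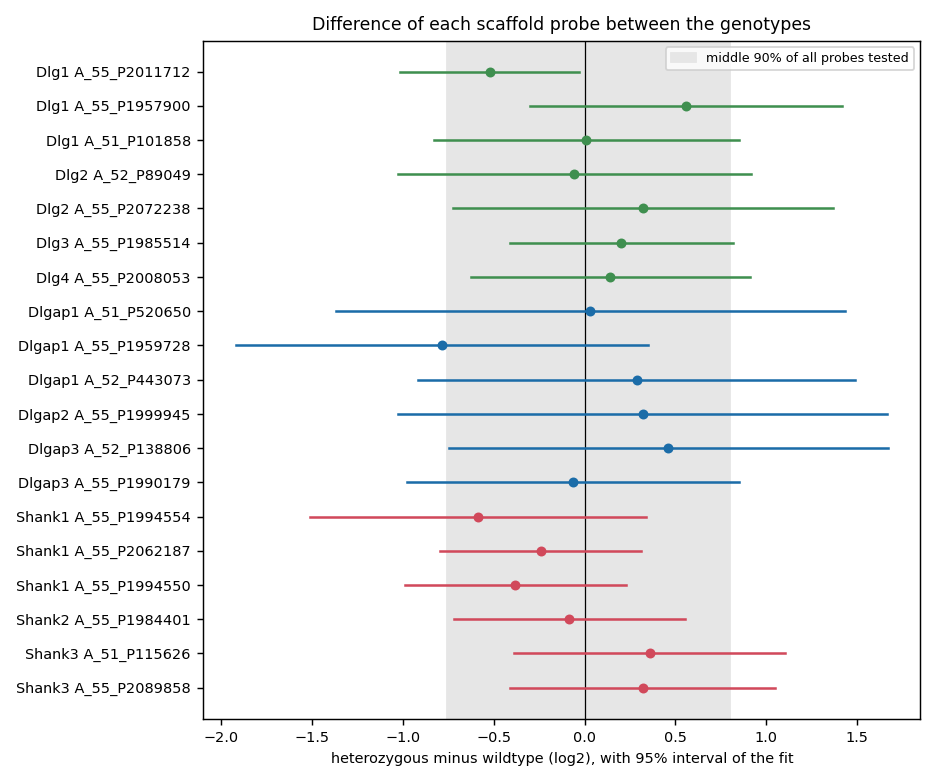
Difference in log2 signal, heterozygous minus wildtype (x axis), of the 19 scaffold probes tested, with the 95% interval of the limma fit, and in grey the span of all probes tested from the 5% to the 95% quantile (−0.76 to 0.80). Green is Dlg, blue Dlgap and red Shank. All intervals but that of Dlg1 A_55_P2011712 include 0.

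Dlg1, the MAGUK (membrane-associated guanylate kinase) that binds AMPA receptor subunit GluA1, had probes that ran opposite ways. A_55_P2011712 read 10.10, 10.34, 10.25 and 10.35 in heterozygous samples, against 10.78, 10.90, 10.66 and 10.79 in wildtype samples. Every heterozygous value lay below every wildtype value. The difference was −0.52 (SE 0.22, 95% interval −1.02 to −0.03), with an unadjusted p of 0.0401 and an adjusted p of 0.542 in limma, and −0.17 with the spatial trend removed. Non-overlapping groups with the heterozygous one lower were found for 8.91% of the 18393 probes with 8 values. Genotype varied between arrays and not within them, while the interval takes in both mice of each, so it may be too narrow, here and for the probes that follow.

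The other Dlg1 probes were singled out after their values were seen. A_55_P1957900 read 10.14, 10.55, 10.61 and 10.53 in heterozygous samples, against 10.29, 10.32, 9.61 and 9.37 in wildtype samples. Its difference of 0.56 (SE 0.38, adjusted p = 0.753 in limma) rested on the low wildtype replicates 3 and 4, which shared an array, and was 0.15 without that array. A_51_P101858 lay between 8.53 and 9.46 in heterozygous and between 8.87 and 9.13 in wildtype samples, a difference of 0.01 (SE 0.37).

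The log2 ratio of A_55_P2011712 to A_55_P1957900 within a mouse was therefore −0.20 ± 0.13 in heterozygous samples (range −0.36 to −0.04), against 0.88 ± 0.44 in wildtype samples (range 0.48 to 1.42; SD, n = 4 each). The ratio was lower in all 4 heterozygous mice than in any wildtype mouse. The exact two-sided permutation test over samples gave p = 0.0286, or 0.171 after adjustment over the 12 probe pairs compared, and over whole arrays p = 0.333, in each case the smallest that the design allows before adjustment.

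Dlg2 and Dlg4, of which Dlg4 is also called PSD-95, are the MAGUKs tied most closely to NMDA receptors at mature synapses. Dlg2 A_52_P89049 read 11.86, 12.27, 11.74 and 11.81 in heterozygous samples, against 11.68 and 12.28 in wildtype replicates 1 and 2, where replicates 3 and 4 were dropped for flagged spots. Dlg4 A_55_P2008053 (chr11:69858757-69858816) read 12.39, 12.34, 12.29 and 12.25 in heterozygous samples, against 12.08 and 12.28 in wildtype replicates 3 and 4, where replicates 1 and 2 were dropped. Neither gene's groups stood apart beyond the spread, with differences of −0.06 (SE 0.41) for Dlg2 and 0.14 (SE 0.33, 95% interval −0.63 to 0.91) for Dlg4. Each value sets 2 heterozygous arrays against 1 wildtype array. The dimmer Dlg2 probe A_55_P2072238 lay between 7.51 and 8.30 in heterozygous and between 7.32 and 8.27 in wildtype samples, a difference of 0.32 (SE 0.46).

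Dlg3, the X-linked MAGUK abundant at young synapses, was read by 1 probe (chrX:98013667-98013726). It gave 12.84, 12.86, 12.55 and 12.47 in heterozygous samples, against 12.49, 12.16, 12.73 and 12.53 in wildtype samples. The groups overlapped and the difference was 0.20 (SE 0.27, 95% interval −0.41 to 0.82, adjusted p = 0.914 in limma). Over the Dlg genes 5 of 7 probes were above 0 and the median was 0.14.

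Dlgap3, the scaffold that links Dlg4 to Shank3 at cortical inputs of the striatum, was the brightest gene of the set and had the largest positive difference among the brightest probes. A_52_P138806 read 15.43, 16.05, 15.73 and 15.93 in heterozygous samples, against 15.43 and 15.22 in wildtype replicates 3 and 4. The values of wildtype replicates 1 and 2 were left out for flagged spots. The lowest heterozygous value and the higher wildtype value were equal to 2 decimals, and the difference of 0.46 had an SE of 0.51 (adjusted p = 0.890 in limma). The second Dlgap3 probe, A_55_P1990179, read 10.57, 11.38 and 11.98 in the 3 heterozygous samples with a value, against 11.46, 11.99, 10.81 and 11.07 in wildtype samples, a difference of −0.06 (SE 0.40). Without wildtype replicates 1 and 2, which the bright probe lacks, it gave 0.34. The log2 ratio of the brighter to the dimmer probe was 4.39 ± 0.46 in heterozygous (SD, n = 3) and 4.39 ± 0.33 in wildtype samples (SD, n = 2).

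Dlgap1, the scaffold also called GKAP, varied widely between arrays. Its brightest probe A_51_P520650 read 9.88, 10.23, 9.61 and 10.09 in heterozygous samples, against 10.99, 10.45, 8.89 and 9.37 in wildtype samples. The heterozygous values fell inside the wildtype range, whose 2 arrays were over 1 log2 unit apart, and the difference was 0.03 (SE 0.62, 95% interval −1.37 to 1.43). Without the array of wildtype replicates 3 and 4 it was −0.77 and without that of replicates 1 and 2 it was 0.83.

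A_55_P1959728, the Dlgap1 probe with AATAAA, had the largest difference of the set and was singled out for it. It read 9.12, 8.97, 7.71 and 7.87 in heterozygous samples, against 9.55, 8.90, 9.08 and 9.27 in wildtype samples. Heterozygous replicates 3 and 4 were low and replicates 1 and 2 lay in or near the wildtype range. The probe was well above background in only 3 of 4 heterozygous samples, against 4 of 4 wildtype samples. The difference was −0.78 (SE 0.50, adjusted p = 0.736 in limma), and −0.16 without the array of heterozygous replicates 3 and 4.

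The third Dlgap1 probe, A_52_P443073, gave a difference of 0.29 (SE 0.53). The log2 ratio of A_55_P1959728 to A_52_P443073 was −0.26 ± 0.49 in heterozygous samples (range −0.77 to 0.22), against 0.81 ± 0.37 in wildtype samples (range 0.47 to 1.21; SD, n = 4 each). The ranges did not overlap, with an exact two-sided permutation p of 0.0286 over samples, 0.171 adjusted over the 12 pairs and 0.333 over arrays. With the Dlg1 pair this made 2 of 12 pairs with ranges apart, beside 16.9% of single probes with 8 values. That share is of levels and not of ratios, and none is given here for probe pairs of other genes. The 12 pairs come from 6 genes, and pairs of the same gene can share a probe.

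**Figure D3:**
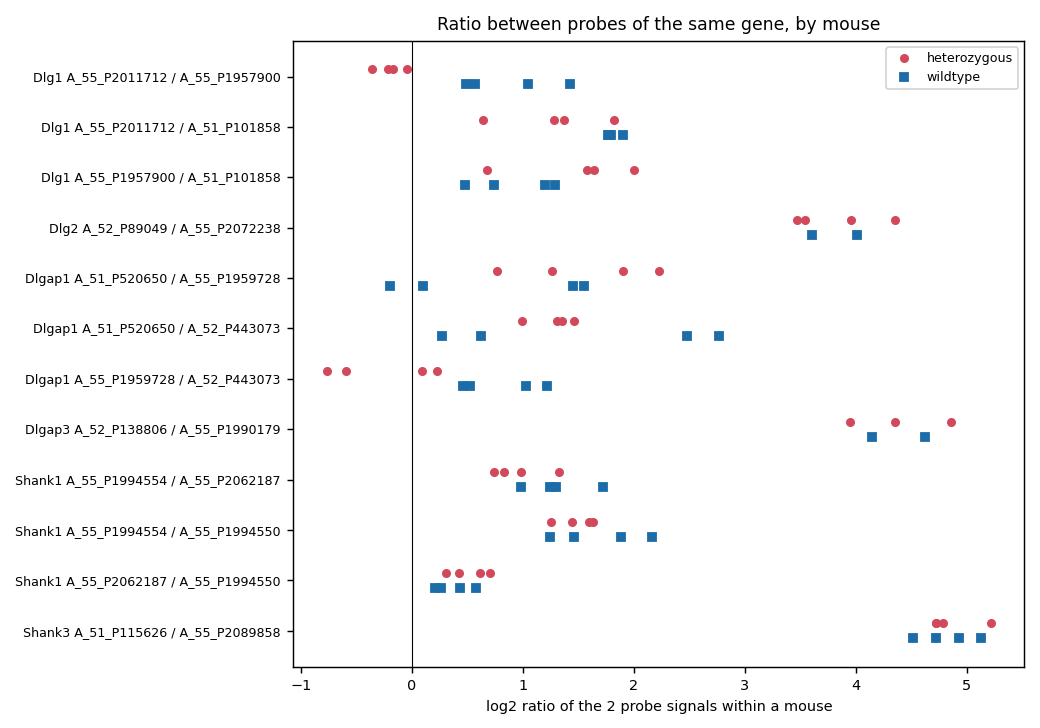
Log2 ratio of the signals of 2 probes of the same gene within each mouse (x axis), for the 12 pairs of tested probes, with heterozygous mice as red circles above wildtype mice as blue squares. The ranges are apart for the Dlg1 pair in the top line (−0.36 to −0.04 against 0.48 to 1.42) and for the Dlgap1 pair A_55_P1959728 / A_52_P443073, and overlap for the other 10. Of single probes with 8 values 16.9% had groups apart, and the share over probe pairs of other genes is not given here.

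Dlgap2, a scaffold of the same structure, was read by A_55_P1999945. It gave 10.41, 10.57, 9.80 and 9.67 in heterozygous samples, against 10.46, 10.38, 9.64 and 8.68 in wildtype samples. In both genotypes replicates 3 and 4 were lower than replicates 1 and 2, and the difference was 0.32 (SE 0.60). Over the Dlgap genes 4 of 6 probes were above 0, with a median of 0.16.

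Shank1, the family member with its main known role in cortex and hippocampus, was lower in heterozygous samples by all 3 probes tested, none past the adjusted test. A_55_P1994554 read 8.67, 8.74, 8.70 and 9.09 in heterozygous samples, against 9.28, 9.02, 9.34 and 9.90 in wildtype samples. Only heterozygous replicate 4 lay above any wildtype value, and the difference was −0.59 (SE 0.41, 95% interval −1.51 to 0.34, adjusted p = 0.759 in limma). A_55_P2062187 read 7.93, 7.75, 7.87 and 7.76 in heterozygous samples, against 8.04, 8.04, 8.04 and 8.18 in wildtype samples. These groups did not overlap, with 7.93 and 8.04 as the nearest values, and the difference was −0.24 (SE 0.24, adjusted p = 0.868 in limma). It and the Dlg1 probe were the 2 of 15 scaffold probes with 8 values whose groups did not overlap, where 16.9% of all such probes did so.

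The third Shank1 probe, A_55_P1994550, lay between 7.14 and 7.46 in heterozygous and between 7.46 and 7.82 in wildtype samples, with a difference of −0.38 (SE 0.27). The highest heterozygous value and the lowest wildtype value were equal to 2 decimals. These 3 probes lie within the same stretch of chromosome 7 (51612134 to 51613720), were designed on NM_001034115 and read the same RNA of each mouse, so they are not independent. A_55_P2062187 and A_55_P1994550 were each well above background in 7 of 8 samples, 3 of 4 heterozygous and 4 of 4 wildtype. The lower group thus held a value near background. The ratios among the 3 probes did not set the genotypes apart, with adjusted exact permutation p between 0.457 and 0.600 over the 12 pairs.

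Shank2, which is found in cortex, hippocampus and cerebellum, was near background. A_55_P1984401 (chr7:151610225-151610284) read 7.51, 7.52, 7.67 and 7.82 in heterozygous samples, against 7.63, 7.46, 7.77 and 8.01 in wildtype samples. The groups overlapped and the difference was −0.09 (SE 0.28).

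Shank3, the striatal Shank, was higher in heterozygous samples by both of its probes, neither past the adjusted test. A_51_P115626 read 12.56, 12.95, 12.45 and 12.74 in heterozygous samples, against 12.39, 12.55, 12.27 and 12.05 in wildtype samples. The groups overlapped, as wildtype replicate 2 lay above heterozygous replicate 3. The difference was 0.36 (SE 0.33, adjusted p = 0.849 in limma). A_55_P2089858, dimmer by more than 4 log2 units, gave 0.32 (SE 0.32), with 7.33 to 8.23 in heterozygous and 7.14 to 7.83 in wildtype samples. The log2 ratio of the probes was 4.86 ± 0.24 in heterozygous and 4.83 ± 0.26 in wildtype samples (SD, n = 4 each; exact permutation p = 0.994 after adjustment over the 12 pairs).

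A_51_P115626 was printed in 10 spots, whereas the other 21 scaffold probes had 1 spot each, and so shows the error of a single spot. Between 8 and 9 spots were free of outlier flags in heterozygous samples and between 4 and 7 in wildtype samples. Their SD was 0.21 to 0.37 in heterozygous and 0.34 to 0.43 in wildtype samples, about as large as the difference between the genotypes. The same spot read in the other mouse of its array differed less. The SD was 0.20 on the array of heterozygous replicates 1 and 2, where the spot SD was 0.37 and 0.29. It was 0.05 on the array of heterozygous replicates 3 and 4, and 0.05 and 0.07 on the wildtype arrays. Over the 265 probes printed 10 times, the median spot SD was 0.30 to 0.35 in heterozygous and 0.37 to 0.49 in wildtype samples.

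**Figure D4:**
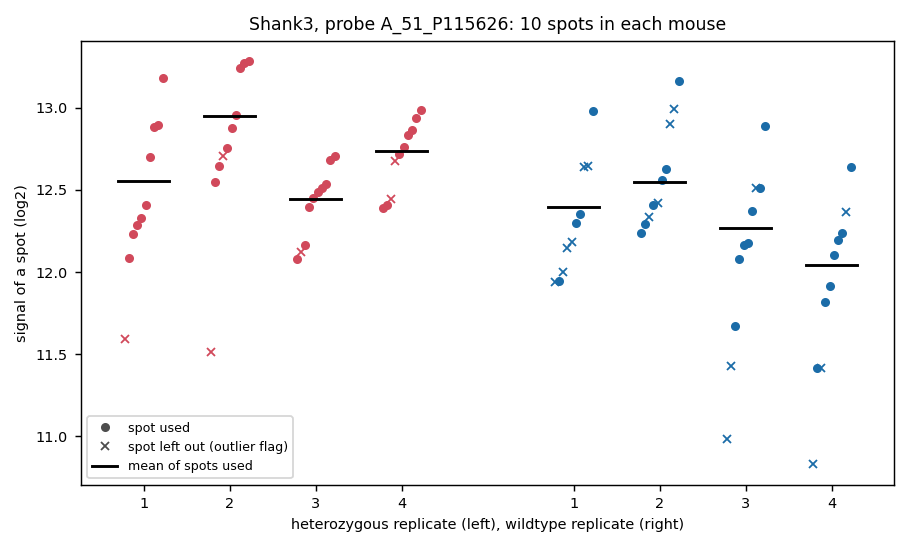
Log2 signal (y axis) of the 10 spots of Shank3 A_51_P115626 in each heterozygous (left) and wildtype (right) mouse. Circles are spots used, crosses spots left out for an outlier flag, and bars the mean of the spots used, 12.45 to 12.95 in heterozygous and 12.05 to 12.55 in wildtype mice. The 10 spots of heterozygous replicate 2 run from 11.51 to 13.29, those left out included.

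The 15 scaffold probes with 8 values read closer between mice of an array than between arrays. The median absolute difference was 0.18 between the 2 mice of an array, 0.23 between the heterozygous arrays and 0.32 between the wildtype arrays. For all 18393 probes with 8 values these were 0.16, 0.32 and 0.35. Over the Shank genes 2 of 6 probes were above 0, both of Shank3, and the median was −0.16. The median absolute difference between genotypes was 0.32 over the 19 scaffold probes and 0.27 over all probes tested.

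**Figure D5:**
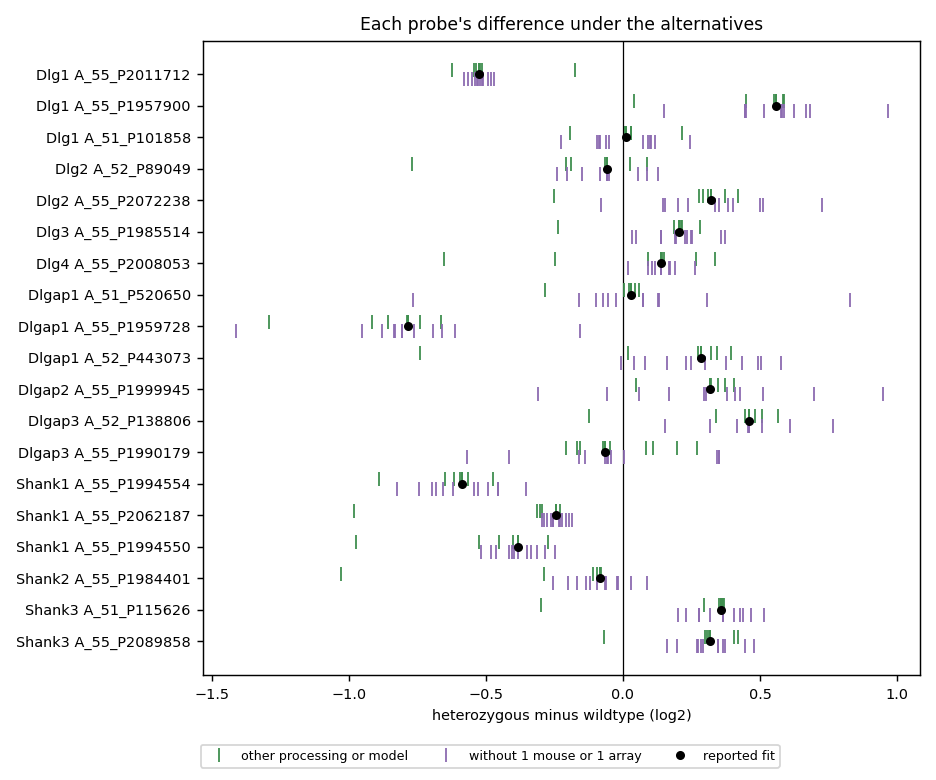
Difference in log2 signal, heterozygous minus wildtype (x axis), of the 19 scaffold probes as reported (black) and under up to 27 alternatives, of which green ticks are other processing or models and purple ticks leave out 1 mouse or 1 array. All ticks lie below 0 for Dlg1 A_55_P2011712, Dlgap1 A_55_P1959728 and the 3 Shank1 probes, and above 0 for Dlg1 A_55_P1957900.

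Over the 27 alternatives, several of which alter the error or the set of probes and leave a probe's difference as it is, Dlg1 A_55_P2011712 ran from −0.62 to −0.17 and Shank1 A_55_P1994554 from −0.89 to −0.35. The −0.17 of the Dlg1 probe came with the spatial trend of each sample removed, where its unadjusted p in limma was 0.415. Shank3 turned to −0.30 for A_51_P115626 and −0.069 for A_55_P2089858 with the scanner's processed signals, which moved the median of all probes to −0.52. Relative to that median the Shank3 probes were 0.22 and 0.45, Dlg1 A_55_P2011712 was −0.11 and the Shank1 probes lay between −0.46 and −0.37. No scaffold probe passed an adjusted p of 0.05 in limma under any of the 27, the lowest being 0.0525 for Dlg1 A_55_P2011712 with the array block left out.

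The partners of these scaffolds were read from a list of 31 other postsynaptic density genes, of which 29 had a probe and 28 a tested one. Of 48 tested probes 25 were above 0 and 23 below, with a median of 0.02, and 0 passed the adjusted test in limma. Before adjustment 2 were higher (4.7% of all probes were) and 4 lower (4.17%). Of the 35 with 8 values, 0 lay wholly above the wildtype group (8.01% of all such probes) and 4 wholly below (8.91%).

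Cask, a MAGUK on both sides of the synapse, had the lowest p of the list. A_51_P167232 read 7.14, 7.10, 7.13 and 7.03 in heterozygous samples, against 8.90, 8.48, 8.69 and 8.54 in wildtype samples. The groups were far apart and the difference was −1.55 (SE 0.26, adjusted p = 0.324 in limma), which passed in 2 of 26 alternatives, those without the array block and with the replicate block. Its heterozygous values were near background, well above it in 3 of 4 samples. Of the other 3 Cask probes, A_55_P2052799 stood well above background in all 8 samples. It gave −0.32 (SE 0.36), so that the difference of the first was not seen in it. A_55_P2052794 gave 0.73 and A_55_P2052789 gave −0.22. They were well above background in only 5 and 6 of 8 samples, so a drop of that size could not be read well in them.

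Homer1, which binds Shank proteins and crosslinks them to metabotropic glutamate receptors, had 1 probe of 5 that differed widely. A_55_P1982111 read 11.35, 11.69, 11.29 and 11.22 in heterozygous samples, against 9.39 and 8.79 in wildtype replicates 3 and 4, the other wildtype values being left out for flagged spots. Its difference was 2.30 (SE 0.57, adjusted p = 0.349 in limma) from 1 wildtype array, and passed in 2 of 22 alternatives (0.98 to 2.67), the same as for Cask. The other 4 Homer1 probes lay between −0.48 and 0.02.

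Dynll2, a dynein light chain that binds Dlgap1, was read by probes of opposite direction. A_51_P203878 gave 10.45, 10.59, 11.11 and 11.09 in heterozygous samples, against 11.62, 11.53, 12.02 and 12.20 in wildtype samples, a difference of −1.03 (SE 0.30, adjusted p = 0.379 in limma, passing in 1 of 27 alternatives, the replicate block), and A_51_P437144 gave 0.41 (SE 0.35). Baiap2, the insulin receptor substrate that binds Dlg4 and Shank proteins, gave 0.62 (SE 0.57). Its means were 12.84 in heterozygous and 12.55 in wildtype samples, closer than the fitted difference. It read 12.54 to 13.23 in heterozygous samples, against 12.88, 13.35 and 11.41 in wildtype replicates 1, 2 and 4. Only wildtype replicate 4 lay below the heterozygous values. Baiap2 had no value in wildtype replicate 3 and ran from −0.28 to 1.63 over 24 alternatives. Of the remaining lowest p-values, the MAGUK Dlg5 differed by −0.81 (SE 0.29), the Arf exchange factor Iqsec3 by −1.63 (SE 0.57) and Dlgap4 by 0.93 (SE 0.33). Each had an adjusted p of 0.457 to 0.459 in limma. Iqsec3 had no value in wildtype replicate 2 and read 15.89 in replicate 1, against 14.04 and 13.94 in replicates 3 and 4. It ran from −2.59 to −0.78 over 24 alternatives. A second Iqsec3 probe, A_52_P517247, was well above background in all 8 samples but had only 1 wildtype value, so it was not tested. It read the other way, at 11.90 to 12.42 in heterozygous samples, against 11.31 in wildtype replicate 3. Dlgap4 had no value in heterozygous replicate 3 and ran from −0.56 to 1.34 over 24 alternatives.

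Levels of cell type markers are given beside these values, and 0 marker probes passed the adjusted test in limma. The summed level of 10 striatal projection neuron genes, 9 of them well above background in all samples, was 17.89 to 18.31 in heterozygous and 16.78 to 17.84 in wildtype samples, with 16 of 19 probes above 0 and a median of 0.47 (range −0.32 to 1.55). Penk read 16.52 ± 0.26 in heterozygous and 15.66 ± 0.57 in wildtype samples (SD, n = 4 each). Thalamus and septum genes ran the other way, with 6 of 8 probes below 0 and a median of −0.51. So did cortical excitatory genes, with 6 of 8 probes below 0 and a median of −0.76. The summed level of 6 cortical genes was 10.86 to 11.68 in heterozygous and 11.14 to 13.43 in wildtype samples. Tbr1, a cortical transcription factor, was 8.96 ± 0.57 in heterozygous and 10.03 ± 1.58 in wildtype samples (SD, n = 4 each), where it reached 12.37 in replicate 1.

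As for the striatal genes, the summed levels of the genotypes did not overlap for microglia, at 13.44 to 13.69 in heterozygous and 13.22 to 13.37 in wildtype samples (6 of 6 genes above background in all 8), or for endothelium, at 11.11 to 11.81 in heterozygous and 12.25 to 12.48 in wildtype samples (3 of 4). Single probes of these 2 lists ran both ways. For microglia 5 of 9 tested probes were above 0, with a median of 0.07 (range −0.68 to 0.58). For endothelium 2 of 5 were above 0, with a median of −0.005 (range −1.06 to 0.66). The summed levels overlapped for oligodendrocytes, at 15.25 to 15.87 in heterozygous and 15.05 to 15.96 in wildtype samples. They did so for astrocytes, at 16.24 to 16.62 in heterozygous and 16.43 to 16.76 in wildtype samples. They also overlapped for thalamus and septum, where the highest sum was 14.54 in heterozygous and 14.76 in wildtype samples, and for choroid plexus, at 12.28 to 17.25 in heterozygous and 8.60 to 17.40 in wildtype samples. Atrial heart muscle genes summed to 10.16 to 10.54 in heterozygous and 10.64 to 12.23 in wildtype samples, again with no overlap, with 1 of 8 genes well above background in every sample and 2 genes in no sample. For the striatal genes the nearest sums were 17.89 in heterozygous and 17.84 in wildtype samples. Among single probes with 8 values 16.9% had groups that did not overlap, and no such share is given for summed levels. The part of any of these cell types or tissues in the scaffold values was not tested.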

How the data were processed

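Per the file headers, Agilent Feature Extraction 11.0.1.1 gave the deposited intensity of every spot and its local background per channel, and coordinates on mm9. The value table the authors deposited holds a linear ratio, found by comparison to be median spot minus median background intensity over the column's median (each column's median is 1), and served as an alternative. Other author steps are not given in the sources used here.

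The channel that carried the sample's RNA was used. Log2 signals were derived from the deposited intensity with limma 3.58.1 in R 4.3.3: normexp (offset 50), loess within arrays and Aquantile between arrays. Background readings with an outlier flag were set to the channel median. Control spots and spots with outlier flags were left out, and spots of a probe averaged. Probes well above background in at least 4 of 8 samples, with at least 2 values per genotype, were fitted with genotype, dye and the array as a random block (correlation 0.81), and p-values adjusted by Benjamini-Hochberg over 21828 probes. The fits were tested on simulated data, and 27 alternatives were run. Ratios of 12 probe pairs were compared by two-sided exact permutation tests. The p-values reflect the spread among mice and arrays, and 4 arrays limit the precision.

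Values in every sample are given for each scaffold gene's brightest probe, for scaffold probes under an unadjusted p of 0.05 and for those whose groups do not overlap. Partner genes named are the 6 with the lowest p of their list, which hold the binders Homer1 and Dynll2, and the binder Baiap2. Members, lists and rules were chosen with earlier results of these data known.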

Additional observations from a re-analysis of the deposited data

Results flagged for a closer look

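In 19 groups of 4 values of the named probes, 2 held a sample whose gap to the nearest other exceeded Dixon's 95% critical value as a share of the range, where chance does so in about 1 of 20 groups. Heterozygous replicate 4 read 9.09 for Shank1 A_55_P1994554, the other heterozygous samples 8.67 to 8.74. Wildtype replicate 4 read 8.18 for Shank1 A_55_P2062187, the other wildtype samples all 8.04.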

How the results depend on the processing

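Of the 27 alternatives, 20 kept the count of probes past the limma test over all probes at 0, and no scaffold probe passed in any of the 27. The fit of probes with 8 values alone was chosen after seeing the data. The count was 1 with the deposited value table, 962 with no array block and 1046 with the replicate block, and 0 to 24 when a mouse or an array was left out (1 without wildtype replicate 4, 5 without the array of heterozygous replicates 3 and 4, 24 without that of wildtype replicates 1 and 2, 16 without that of wildtype replicates 3 and 4). At an unadjusted p under 0.05 the count of 1935 became 4925 with no array block, 6043 with the replicate block, 3439 with no filter on dim probes, 3502 without the array of wildtype replicates 1 and 2, 1224 with array averages, 1193 with the value table and 1100 with the spatial trend removed. Whether the replicate numbers pair mice cannot be told from these values, since mice of the same number also share a dye. The correlation of same-numbered deviations was 0.04, 0.26, 0.16 and 0.12 for numbers 1 to 4. After the dye was taken out it was 0.07 for numbers 1 and 3 and 0.17 for numbers 2 and 4. In all, 4 of 8 samples correlated best with their own number.

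The median over the scaffold probes (0.03) was −0.30 with the scanner's processed signals, which moved the median of all probes to −0.52, and 0.17 over the 14 probes above background in all 8 samples. That of the other postsynaptic density probes (0.02) was −0.57 with the processed signals and −0.18 to 0.10 when a mouse or an array was left out, the lowest without the array of heterozygous replicates 1 and 2. With the processed signals the sign turned for Dlg3 (−0.24), Dlg4 (−0.65), Dlgap1 A_51_P520650 (−0.29), Dlgap3 A_52_P138806 (−0.12) and Shank3 A_51_P115626 (−0.30), and for the dimmer probes Dlg1 A_51_P101858 (−0.19), Dlg2 A_55_P2072238 (−0.25), Dlgap1 A_52_P443073 (−0.74) and Shank3 A_55_P2089858 (−0.069). Relative to the median of all probes there, Dlg4 was −0.14, Dlgap1 A_52_P443073 −0.23 and the others 0.22 to 0.45. It also turned for Dlg4 with the spatial trend removed (−0.25), and for Dlg2 A_52_P89049 with outlier spots kept (0.026) and with the replicate block (0.088). Leaving out a mouse or an array gave −0.24 to 0.13 for this Dlg2 probe, −0.77 to 0.83 for Dlgap1 A_51_P520650, −0.31 to 0.95 for Dlgap2 A_55_P1999945 and −0.26 to 0.087 for Shank2 A_55_P1984401, each changing sign. The cause was not tested. The 2 arrays per genotype limit every value and single spots those of 21 probes, most so for Shank2 and the dim Shank1 and Shank3 probes, close to background.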
